A study of Mus musculus with 4 samples.

Results

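The genes described here are 9 genes best known from T cells that gave signal in cultured mouse B cells: Thy1, Cd8a, Cd8b1, Tcf7, Cd28, Cd3e, Cd3d, Lck and Lat. They were selected on the Aff3-/- minus Aff3+/- difference measured on these same arrays, because Thy1 and Cd8a differed while the T cell receptor complex genes did not. Their values in that contrast are therefore given as a description, with no test. Every array probe assigned to a RefSeq transcript of one of these genes was taken, which gave 11 probes on 20 spots of each array, out of 39429 probes. Each of the 9 genes had a probe that passed the filter on dim signals, within 20637 features tested in all.

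The series compared B cells of Aff3+/- and Aff3-/- mice. The control cells thus carried a mutant Aff3 allele too, and the labels used here describe neither the allele nor the strain or age of the mice. Spleen B cells were purified as the CD43-negative fraction and kept for 3 days with 10 ug/mL LPS, a ligand of the receptor TLR4, and 10 ng/mL IL-4. RNA of 2 samples per genotype was read on 1-colour Agilent arrays, 1 sample per array. Whether the replicates are separate mice is not stated in the labels. The 4 arrays had 24942 to 25862 probes well above background and 0 saturated gene spots. No probe could be named Aff3 through the gene table used, so the genotype labels were not checked on the arrays.

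T cells recognise antigen with a receptor whose signal is carried by the CD3 chains. Lck, a Src family kinase held by the coreceptors CD4 and CD8, starts that signal, and Lat is the membrane adaptor on which it is assembled. Tcf7 encodes TCF-1, a factor of the Wnt pathway that is needed early in T cell development. B cells do not assemble this receptor, yet several of its genes are not strictly confined to T cells. Mouse B cells make Thy1, a GPI-anchored surface glycoprotein, after LPS with IL-4. A subset of splenic dendritic cells carries CD8 alpha, and plasma cells can carry the costimulatory receptor CD28.

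Promoter sequence was available for 6 of the 9 genes. The 250 bases before the transcription start of Cd8a, Cd3d and Cd3e (RefSeq, GRCm38.p6, 5′ to 3′ on the strand of the gene) are shown to set the CD8 coreceptor gene (log2 difference between the genotypes 1.01) beside 2 CD3 genes of the receptor complex (0.07 for Cd3d and -0.11 for Cd3e). Capitals mark every match to the letters of 5 motifs, searched on both strands. These were the TCF/LEF core, written CTTTGA or else CTTTGT, the ETS form AGGAAG and the RUNX site TGTGGT. The others were the E-box of E proteins CACCTG and the GATA site AGATAA. Other forms of these sites, ETS sites included, were not searched, so a stretch without a match may still hold one. No matches overlapped.
Cd8a, chr6:71373177-71373426, plus strand: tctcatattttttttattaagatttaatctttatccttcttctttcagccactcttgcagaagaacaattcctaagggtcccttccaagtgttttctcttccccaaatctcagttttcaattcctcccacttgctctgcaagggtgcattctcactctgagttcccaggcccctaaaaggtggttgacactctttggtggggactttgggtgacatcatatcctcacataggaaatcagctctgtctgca
Cd3d, chr9:44981536-44981785, plus strand: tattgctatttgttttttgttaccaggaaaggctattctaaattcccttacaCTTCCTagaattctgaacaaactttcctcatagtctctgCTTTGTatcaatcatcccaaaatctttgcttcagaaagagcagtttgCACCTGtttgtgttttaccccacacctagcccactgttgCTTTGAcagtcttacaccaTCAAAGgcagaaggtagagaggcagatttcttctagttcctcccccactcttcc
Cd3e, chr9:45009612-45009861, minus strand: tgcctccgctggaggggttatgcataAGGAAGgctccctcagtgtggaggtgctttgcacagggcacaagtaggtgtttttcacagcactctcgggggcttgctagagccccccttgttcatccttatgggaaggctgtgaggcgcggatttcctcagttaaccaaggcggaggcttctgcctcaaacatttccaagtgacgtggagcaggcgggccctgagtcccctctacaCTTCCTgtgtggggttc
The Cd8a stretch held no match to the letters searched for the 5 motifs. The Cd3d stretch held 3 TCF/LEF matches, ending 153, 67 and 48 bases before the start, 1 ETS match and 1 E-box. The Cd3e stretch held 2 ETS matches, the nearer ending 11 bases before the start. Among all 32851 stretches of this length in the RefSeq table, 27.6% held a TCF/LEF match, 29.5% an ETS match, 14.0% a RUNX match, 17.2% the E-box and 9.99% a GATA match. Such short matches are common, and they describe letters, not bound sites. The upstream Lck start held 3 ETS matches and 1 RUNX match, and the downstream Lck start held 1 TCF/LEF, 1 ETS and 1 E-box match. Lat held 1 ETS match, and neither of 2 Tcf7 starts held a match to the letters searched.

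Thy1 showed the widest genotype difference of the 9 genes. Its processed signal was 457 and 1009 intensity units on the Aff3+/- arrays (replicates 1 and 2) and 1376 and 1497 on the Aff3-/- arrays. Both Aff3-/- arrays lay above both Aff3+/- arrays, and the lowest value, that of Aff3+/- replicate 1, stood well apart. On the log2 scale, relative to the 75th percentile of each array, the means were -0.95 ± 0.75 (SD, n = 2) in Aff3+/- and 0.14 ± 0.11 (SD, n = 2) in Aff3-/- cells. The log2 difference was 1.09 ± 0.37 (SE), or 2.13-fold. The 2 Aff3+/- arrays differed from each other by 1.06, which was about as much as the genotypes did and more than in 99.2% of all features. Without Aff3+/- replicate 1 the Thy1 difference was 0.56, and without Aff3+/- replicate 2 it was 1.62. No SE is given where 1 array was left in a genotype, because it would hold none of the spread between that genotype's arrays.

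Cd8a, which encodes the alpha chain of the CD8 coreceptor, followed the same order of arrays. One of its probes was printed on 10 spots per array, which gives a measure of technical spread within an array that the other members lack. After outlier spots were left out, the median spot signal was 7.66 units on Aff3+/- replicate 1 (9 spots, 6.11 to 13.1), 18.2 on Aff3+/- replicate 2 (8 spots, 16.4 to 21.1), 18.7 on Aff3-/- replicate 1 (10 spots, 15.5 to 30.1) and 30.3 on Aff3-/- replicate 2 (10 spots, 23.8 to 36.0). The spots of Aff3+/- replicate 2 and Aff3-/- replicate 1 overlapped, while Aff3+/- replicate 1 was lowest and Aff3-/- replicate 2 highest. Only 4 of the 9 spots on Aff3+/- replicate 1 were well above background, against all spots used on the other 3 arrays. The SD between spots of an array was 0.14 to 0.37 on the log2 scale, below the gap of 1.11 between the 2 Aff3+/- arrays. Spots of an array share 1 sample, so this SD leaves out technical spread between arrays and cannot tell whether the gap is technical.

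Averaged over spots, Cd8a had means of -6.74 ± 0.78 (SD, n = 2) in Aff3+/- and -5.74 ± 0.44 (SD, n = 2) in Aff3-/- cells, on the same log2 scale. The log2 difference was 1.01 ± 0.43 (SE), or 2.01-fold. Without Aff3+/- replicate 1 it was 0.45, and without Aff3+/- replicate 2 it was 1.56. The second Cd8a probe, a single spot annotated to another transcript accession, read 7.40 and 15.0 units on the Aff3+/- arrays (replicates 1 and 2) and 11.9 and 18.3 units on the Aff3-/- arrays. With this probe the genotypes overlapped, and its log2 difference was 0.49. These signals lie close to the detection limit: the lowest signal of a probe well above background was 5.96 to 6.96 units, depending on the array.

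**Figure D1:**
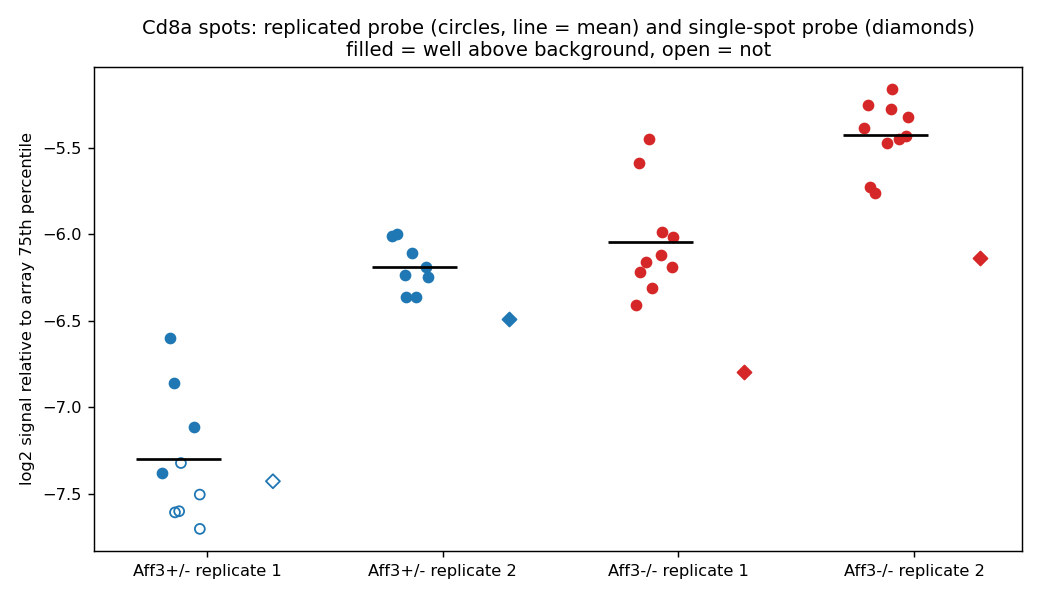
Log2 signal of each Cd8a spot, relative to the 75th percentile of its array, on the 4 arrays; circles are the spots of the replicated probe with their mean as a line, diamonds the single-spot probe, open symbols are not well above background, and outlier spots are left out. Spots of Aff3+/- replicate 2 and Aff3-/- replicate 1 overlap, the latter over a wider range, with means of -6.19 and -6.05.

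Cd8b1 encodes the beta chain that pairs with CD8 alpha on cytotoxic T cells, and its gene lies next to Cd8a on chromosome 6. Its signal was 4.88 and 14.4 units on the Aff3+/- arrays and 9.31 and 14.9 on the Aff3-/- arrays. Aff3+/- replicate 2 exceeded Aff3-/- replicate 1, so the genotypes overlapped, and Aff3+/- replicate 1 was not well above background. The log2 difference was 0.50 ± 0.55 (SE). It depended on a single array, at -0.24 without Aff3+/- replicate 1 and 1.24 without Aff3+/- replicate 2. As with Cd8a, the gene passed the filter through the Aff3-/- arrays, where it was well above background on both, so its place among the features tested is no evidence of a difference.

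Cd28 and Tcf7 had higher means in Aff3-/- cells with different patterns over the arrays. Cd28, the costimulatory receptor for CD80 and CD86, read 83.5 and 96.6 units on the Aff3+/- and 120.0 and 104.0 on the Aff3-/- arrays. The genotypes did not overlap, and the log2 difference was 0.33 ± 0.13 (SE), staying between 0.24 and 0.41 when any 1 array was left out. Tcf7 read 27.8 and 23.7 units on the Aff3+/- and 54.5 and 24.7 on the Aff3-/- arrays. Its value was high only on Aff3-/- replicate 1, the genotypes overlapped, and the log2 difference was 0.53 ± 0.40 (SE). Without Aff3-/- replicate 1 the Tcf7 difference was -0.03, and without Aff3-/- replicate 2 it was 1.08. A second Tcf7 probe was not well above background on any of the 4 arrays.

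The receptor complex genes and the signalling genes varied little. Cd3e, a signalling chain of the CD3 complex, read 379.7 and 366.7 units on the Aff3+/- and 385.7 and 307.4 on the Aff3-/- arrays, with a log2 difference of -0.11 ± 0.15 (SE). Cd3d, its partner chain, read 15.3 and 16.9 against 17.8 and 15.8 units, a log2 difference of 0.07 ± 0.12 (SE). The Aff3-/- arrays spanned or overlapped the Aff3+/- arrays for both genes. Lck was a bright probe, at 9169 and 8819 units on the Aff3+/- and 8691 and 8038 on the Aff3-/- arrays. Its log2 difference was -0.09 ± 0.12 (SE). Lat read 66.4 and 66.2 against 61.8 and 63.2 units, and its log2 difference was -0.07 ± 0.12 (SE). On the scale relative to the 75th percentile the genotypes overlapped for Lck and for Lat. For these 4 genes the 2 Aff3+/- arrays differed from each other by 0.05 to 0.14 on the log2 scale.

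**Figure D2:**
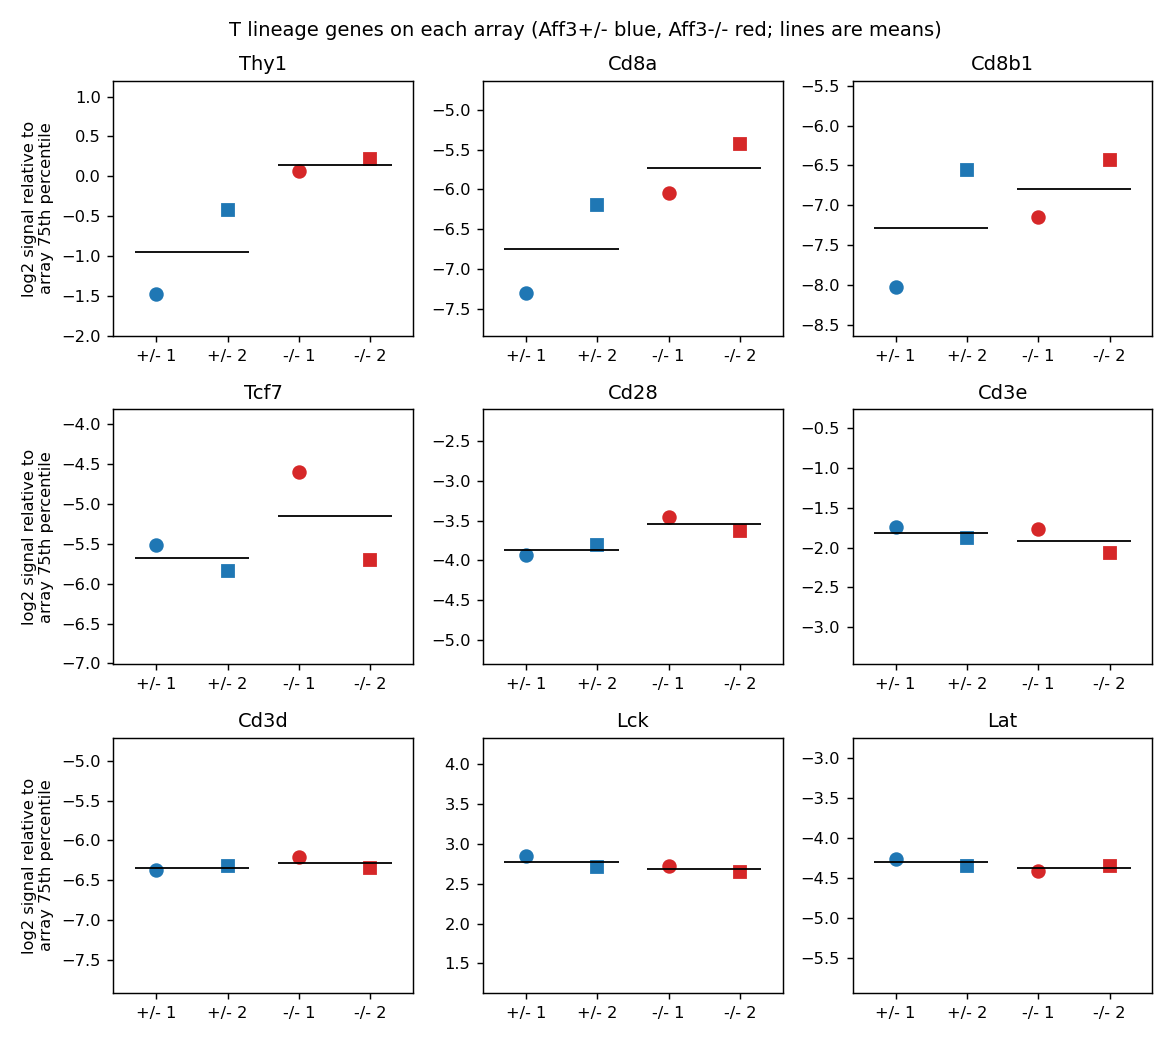
Log2 signal relative to the array's 75th percentile for each gene on the 4 arrays (Aff3+/- blue, Aff3-/- red, circles replicate 1, squares replicate 2), with genotype means as lines; each panel spans the same range of log2 units around its own centre. Thy1, Cd8a and Cd8b1 are lowest on Aff3+/- replicate 1, Tcf7 is highest on Aff3-/- replicate 1, and Cd3e, Cd3d, Lck and Lat are nearly level.

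Of the 9 genes, 3 (Thy1, Cd8a and Cd28) had no overlap, each with the Aff3-/- arrays higher. Over all 20637 features 19.6% had no overlap, 8.45% with the Aff3-/- arrays higher and 11.1% with them lower, and nothing is read from this count because the contrast chose the genes. The 4043 features without overlap split into 1743 higher and 2300 lower, against 2480 and 2012 with normexp and 2022 and 2016 with quantile normalization. In the deposited values, which hold only part of the probes, 0 were higher and 4046 lower. Of the 22090 features of that table, 18.7% had a higher mean in Aff3-/- cells. Its probes were thus one-sided in direction, and its split cannot be read as an effect of normalization. In the fit reported, the median log2 difference was 0.33 over the 9 genes and -0.01 over all features. The median of the 9 genes dropped to 0.04 when Aff3+/- replicate 1 was left out, and leaving out Aff3-/- replicate 1 or 2 gave -0.002 or 0.15. It was 0.08 with normexp, and 0.07 over the 7 genes well above background on all 4 arrays. No feature passed an adjusted p of 0.05 with limma (Benjamini-Hochberg, two-sided, 0% of features), and 421 (2.04%) had an unadjusted p under 0.05. The Thy1 and Cd8a differences were each larger in size than those of 99.7% of features, and those of Cd3e, Cd3d, Lck and Lat than 65.2%, 48.1%, 61.5% and 52.1%. These ranks and the median of the 9 genes restate how the genes were chosen, and nothing is read from them.

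**Figure D3:**
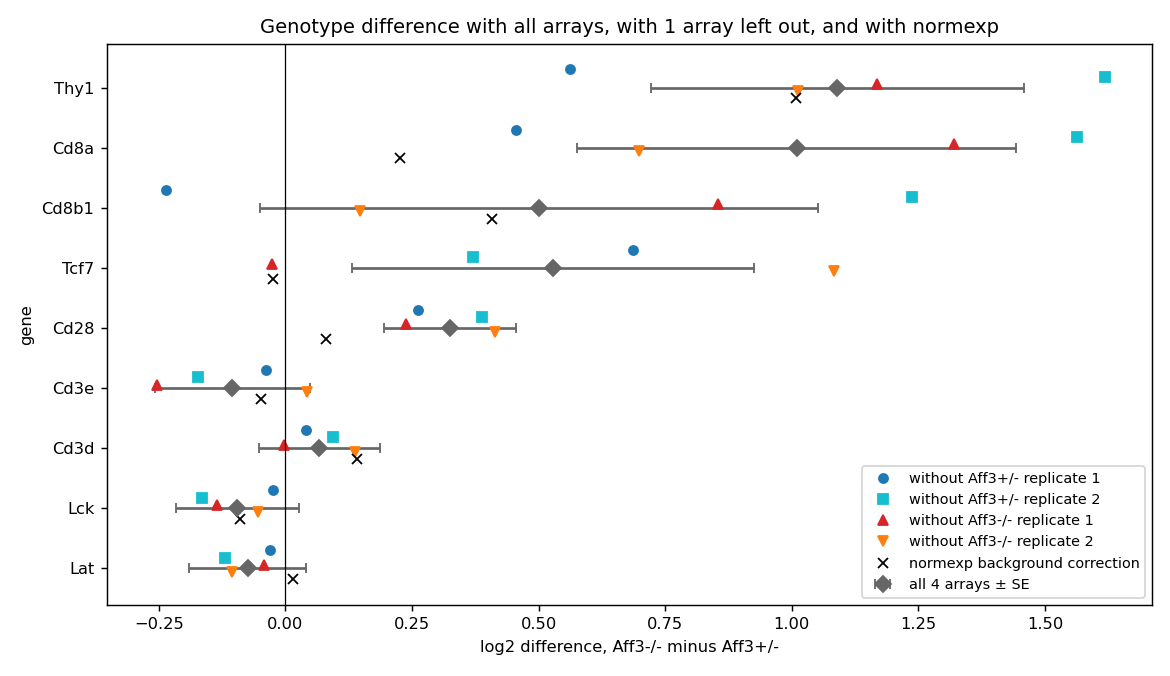
Log2 difference (Aff3-/- minus Aff3+/-) of each gene over all 4 arrays with its SE (grey), with each array left out in turn, and with normexp background correction. Leaving out Aff3+/- replicate 1 moves Thy1 to 0.56, Cd8a to 0.45 and Cd8b1 to -0.24, whereas the lower 4 genes stay between -0.25 and 0.14 in these settings.

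The differences of Cd8a, Tcf7 and Cd28 were smaller with normexp. That alternative changed the signal (the median over the pixels of a spot), the background correction and the offset together, and their parts were not tested. With an offset of 50 units, which exceeds every Cd8a and Cd8b1 signal, the log2 difference was 0.23 ± 0.13 (SE) for Cd8a, 0.41 ± 0.17 for Cd8b1, -0.02 ± 0.13 for Tcf7 and 0.08 ± 0.12 for Cd28. Thy1, a much brighter probe, stayed at 1.01 ± 0.30 (SE). The authors' deposited value table held 4 of the 11 probes (those of Lat, Lck and Cd3e and the dim Tcf7 probe) and thus none for Thy1, Cd8a, Cd8b1, Cd28 or Cd3d.

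Among T cell markers outside the 9 genes, none of those tested had a higher mean in Aff3-/- cells. In a list of 20 T cell markers that included the 9 genes, 13 were well above background on all 4 arrays, 3 on some and 4 on none. The 4 were Cd3g and Cd247, which encode the CD3 gamma and zeta chains, Trat1, a receptor-associated adaptor, and the T lineage factor Bcl11b. These 4 were among the markers that define the lineage, as were Cd3e and Cd3d, which were detected on all 4 arrays. Among the 11 markers outside the 9 genes, 6 could be tested. All 6 had a lower mean in Aff3-/- cells, none past the adjusted threshold with limma. Over all 20637 features 45.7% had a higher mean in Aff3-/- cells, and 52.4% did with normexp. The counts of higher and lower genes in this and the later lists stand beside that share and were not tested. The summed signal of the 20 markers, in multiples of the 75th percentile of the array, was 16.1 and 14.5 in Aff3+/- and 14.9 and 13.4 in Aff3-/- cells. The probes of Lck and Cd2 gave 64.1% to 73.7% of that sum on each array. Such a sum follows its brightest probes, whose brightness also depends on the probe, and says little about the dimmer markers, here and for the other lists. In RNA of a whole culture, fewer cells of a type and less RNA per cell cannot be told apart.

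**Figure D4:**
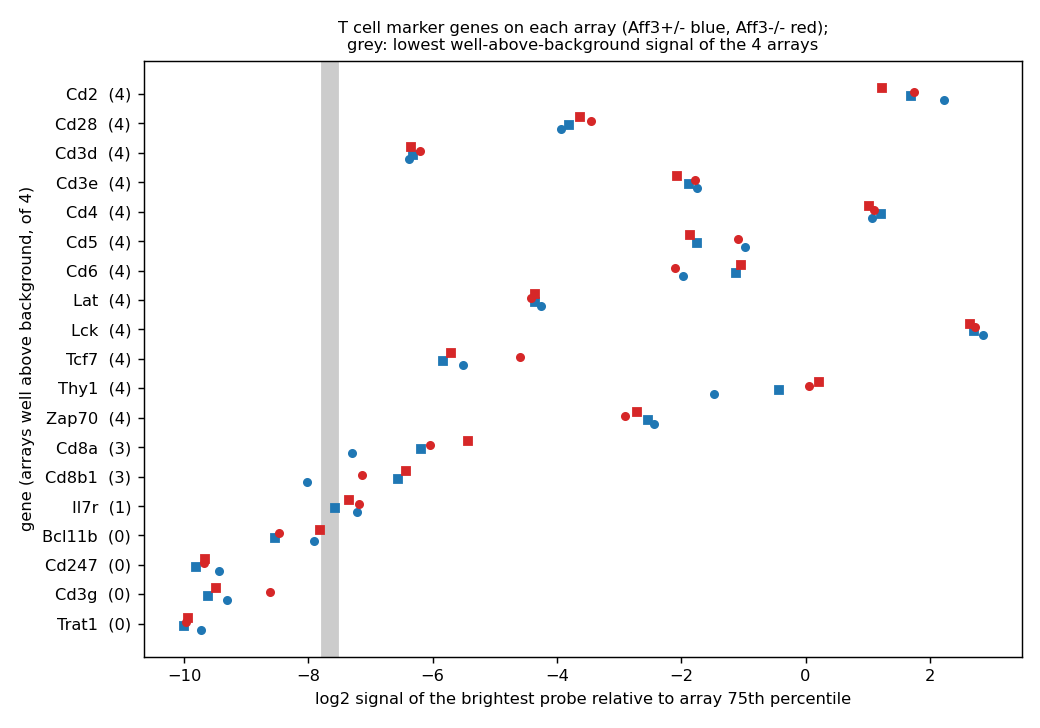
Log2 signal of the brightest probe of T cell marker genes on the 4 arrays (Aff3+/- blue, Aff3-/- red, circles replicate 1, squares replicate 2), ordered by the number of arrays on which it was well above background; signals of different probes are not comparable with each other. Cd3g, Cd247, Trat1 and Bcl11b, each with 0 of 4 arrays, lie below the grey band, which spans the lowest well-above-background signals of the 4 arrays (-7.79 to -7.52).

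In the wider list of receptor signalling genes, 11 of 17 were tested, 1 was higher and 10 were lower in Aff3-/- cells, with a median of -0.09. None passed the adjusted threshold with limma (smallest adjusted p = 1.00). The higher gene was Lcp2, which encodes SLP-76, the cytosolic adaptor that joins Lat. Its log2 values were -5.20 and -4.77 on the Aff3+/- and -3.95 and -4.22 on the Aff3-/- arrays, without overlap, a difference of 0.90 ± 0.20 (SE). Zap70, the kinase that binds phosphorylated CD3 chains, was lower without overlap, at -0.32 ± 0.13 (SE) and at -0.43 for its other probe. Both Cd4 probes were well above background on all 4 arrays and differed by -0.09 and 0.04.

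Among T lineage transcription factors 12 of 14 were tested, 8 higher and 4 lower, with a median of 0.05. Lef1, the relative of TCF-1, was 0.27 ± 0.15 (SE) and Id2, an inhibitor of E proteins, 0.25 ± 0.15 (SE), each without overlap. Gata3 and Bcl11b, which mark T cell commitment, did not pass the filter on dim probes. In the list of Wnt factors and TCF targets, 2 of 10 tested genes were higher and 8 lower (median -0.04), with the Wnt inhibitor Nkd1 at 0.38 ± 0.12 (SE) and Tcf7l2 at -0.09 ± 0.11 (SE). Notch genes had 5 of 8 higher (median 0.09, and below 0 in 4 of 14 alternatives, the one-sided deposited values among them). Ptcra, the pre-T cell receptor alpha chain and a Notch target, was well above background on both Aff3-/- arrays and on neither Aff3+/- array, at least 1.20-fold higher. Its log2 values were -7.80 and -7.72 on the Aff3+/- and -7.31 and -7.40 on the Aff3-/- arrays. These lie close to the lowest well-above-background signals (-7.79 to -7.52). Ptcra passed the filter through the Aff3-/- arrays, so its place among the features tested is no evidence of a difference. Dtx1, also a Notch target, was -0.24 ± 0.17 (SE). No gene of these 3 lists passed the adjusted threshold with limma.

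The CD28 family and its ligands, with 10 of 12 genes tested, had 6 higher and 4 lower members (median 0.02). Ctla4, an inhibitory receptor gene, was 0.17 ± 0.14 (SE) and the ICOS ligand gene Icosl -0.35 ± 0.19 (SE). Cd80 and Cd86, the ligands of CD28, were -0.05 ± 0.12 and 0.15 ± 0.17. A list of other Src family kinases and adaptors, which also held the B cell kinases Syk and Btk of other families, had 10 of 11 genes lower (median -0.16). Lyn, the main Src family kinase of B cells, was -0.29 ± 0.11 (SE) and Syk -0.28 ± 0.20. GPI-anchored and Ly6 family genes, most of which share the GPI membrane anchor of Thy1, had 9 of 11 lower (median -0.16). Cd24a was -0.32 ± 0.12 (SE) and Ly6e -0.19 ± 0.12 (SE). Thy1, higher in Aff3-/- cells, was chosen on this difference, so nothing is read from its contrast with this list. No gene of these 3 lists passed the adjusted threshold with limma.

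**Figure D5:**
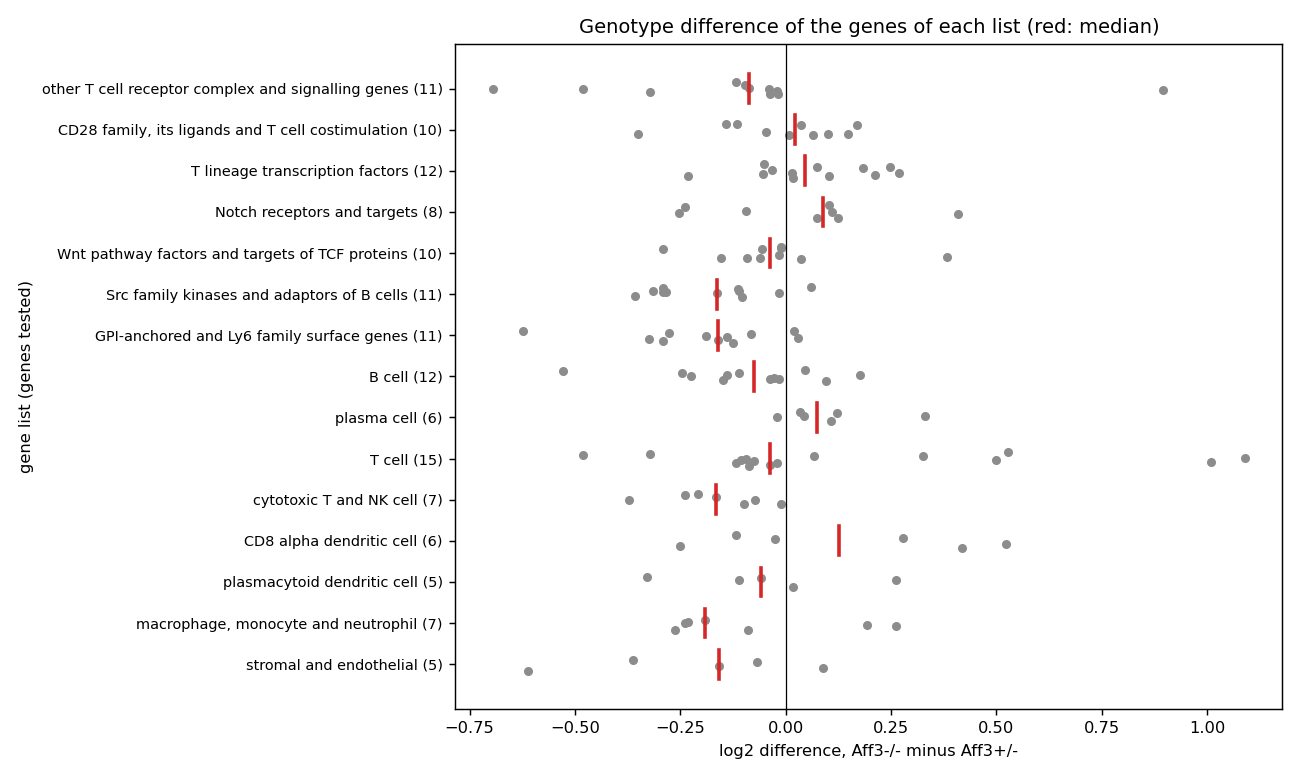
Log2 difference (Aff3-/- minus Aff3+/-) of each tested gene of the 15 gene lists, 1 point per gene, with the list's median in red and the number of genes tested in brackets; the T cell list includes the 9 genes. Medians lie between -0.19 and 0.13. In the T cell list Thy1 and Cd8a lie furthest to the right, and the other genes run from -0.48 (Cd2) to 0.53 (Tcf7).

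Markers of other cell types that can carry these genes were measured beside them. Of 11 CD8 alpha dendritic cell markers on the array 6 were tested, 3 higher and 3 lower, with a median of 0.13. It turned to -0.04 when dim probes were kept and to -0.12 with the deposited values. Those values held no feature with both Aff3-/- arrays higher, so nothing is read from the latter turn. Xcr1 and Clec9a, which define the CD8 alpha dendritic cell, were not well above background on any array. Flt3 was -0.02 ± 0.21 (SE), Batf3 0.42 ± 0.15 and Zbtb46 0.52 ± 0.16, the last 2 without overlap, and the other Zbtb46 probe gave 0.24. Tlr3 was lower without overlap at -0.25 ± 0.15 (SE), Wdfy4 was -0.12 ± 0.13 and Ly75 was higher without overlap at 0.28 ± 0.15. The summed signal of that list was 73.6 and 63.8 multiples of the 75th percentile in Aff3+/- and 68.9 and 60.4 in Aff3-/- cells, and the probes of Wdfy4 and Flt3 gave 97.5% to 98.4% of it on each array.

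Cytotoxic T and NK cell markers had 7 of 17 genes tested, all 7 with lower means in Aff3-/- cells (median -0.17). The chemokine gene Ccl5 was -0.21 ± 0.14 (SE) and the death ligand gene Fasl -0.37 ± 0.24. Ncr1, Klrb1c and Eomes were not well above background on any array, whereas Prf1 was on all 4. Their summed signal was 41.6 and 34.8 in Aff3+/- and 34.0 and 32.3 in Aff3-/- cells. Of plasma cell markers 5 of 6 were higher (median 0.08), Jchain at 0.33 ± 0.17 (SE) without overlap and Xbp1 at 0.12 ± 0.13. Their summed signal was 98.1 and 106.0 against 107.4 and 107.1. Their part in the Cd28 and Thy1 differences was not tested.

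B cell markers were all detected, 12 of 12 tested, with 9 lower and a median of -0.07 (Cr2 at -0.53 ± 0.32, Cd22 at -0.25 ± 0.17, SE), and their summed signal was 399.4 and 353.4 in Aff3+/- and 408.3 and 332.1 in Aff3-/- cells. Plasmacytoid dendritic cell markers (5 of 6 tested, median -0.06) included Ccr9 at -0.33 ± 0.24 and Cox6a2 at 0.26 ± 0.19. Of their defining markers, Siglech was detected on all 4 arrays and Klk1 on none, with summed signals of 111.6 and 105.4 against 107.4 and 101.2. Macrophage, monocyte and neutrophil markers (7 of 15 tested, median -0.19) included C1qb at 0.19 ± 0.14 and Fcgr3 at -0.23 ± 0.17. Csf1r, Adgre1 and C1qb were detected and C1qa and S100a8 were not, with summed signals of 9.65 and 8.84 against 8.91 and 8.16. Stromal and endothelial markers (5 of 8 tested, median -0.16) included Acta2 at -0.36 ± 0.12 and Cdh5 at -0.61 ± 0.25. Kdr was detected on all 4 arrays and Col1a1 and Col3a1 on none, with summed signals of 3.05 and 2.66 against 3.04 and 2.36. No gene of the 8 marker lists passed the adjusted threshold with limma.

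The genes next to the members in the RefSeq gene table were taken from those tested, 2 on each side. Beside the Cd8b1 and Cd8a pair on chromosome 6, Smyd1, Krcc1, Rmnd5a and Rnf103 differed by 0.02, 0.11, -0.04 and 0.02 on the log2 scale, all with overlap. Beside Thy1 on chromosome 9, Oaf (0.29 ± 0.16, SE) was higher without overlap, Nectin1 (0.25 ± 0.29) and Usp2 (0.53 ± 0.31) overlapped, and Rnf26 was -0.01 ± 0.13. Beside Cd3d and Cd3e, also on chromosome 9, the adhesion gene Mpzl2 was 0.58 ± 0.16 (SE) without overlap, and its relative Mpzl3 was lower without overlap at -0.19 ± 0.13, whereas Atp5l (-0.04) and Ube4a (-0.06) were near 0. None of the 12 passed the adjusted threshold with limma.

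Genes with the most similar profile were ranked by the Euclidean distance of their 4 log2 values, each centred on its own mean. The 5 named features nearest to Thy1 were Vwa1 (distance 0.09), Tbxas1 (0.22), Flicr (0.26), Tnfsf14 (0.33) and Vmn2r61 (0.33). Those nearest to Cd8a were Dbx1 (0.17), Tbxas1 (0.19), Epb41l3 (0.27), Vwa1 (0.30) and Flicr (0.31). Thy1 and Cd8a were 0.34 apart, and Cd8a was the 8th nearest of all features to Thy1. Both were chosen because they differed on these same arrays, so nothing is read from their closeness. Tbxas1 encodes thromboxane synthase, and its log2 values were -4.15 and -3.03 on the Aff3+/- and -2.84 and -2.47 on the Aff3-/- arrays. Vwa1 and Vmn2r61 were not well above background on either Aff3+/- array and were at least 1.33-fold higher in Aff3-/- cells, so their distances and ranks rest in part on signals at the background. Flicr, Tnfsf14 and Dbx1 were well above background on 1 of the 2 Aff3+/- arrays. Like Vwa1 and Vmn2r61, they passed the filter through the Aff3-/- arrays, so their place among the features tested is no evidence of a difference. With 4 arrays such distances describe these samples. Each of these genes was lowest on Aff3+/- replicate 1, as Thy1 and Cd8a were. This follows from ranking by likeness to those profiles, and nothing is read from it.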

How the data were processed

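RNA of 2 Aff3+/- and 2 Aff3-/- samples was measured on 1-colour Agilent arrays, 1 per sample, from 150 ng RNA per the labels' protocols. Feature Extraction 10.7.1.1 (Agilent) made the values, per the file headers. The deposited scanner files hold a processed intensity, corrected for background within the array and not normalized between arrays. A deposited table also holds log2 values for 25372 probes, each row centred over the 4 arrays, with the direction of the scanner values. Its row-centred values correlated at 1.00 with those used here on each array. Its log2 differences were close to those reported, at -0.106 for Cd3e, -0.096 for Lck and -0.075 for Lat. The method behind its scaling and the rule that chose its probes are unknown. The table held no feature with both Aff3-/- arrays higher, against 4046 with both lower. Its column medians were 0.13 and -0.03 for Aff3+/- and -0.04 and 0.02 for Aff3-/- replicates 1 and 2.

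Control spots and outlier spots were left out. The log2 processed signal minus the array's 75th percentile (1274, 1351, 1317 and 1288 units for Aff3+/- replicates 1 and 2 and Aff3-/- replicates 1 and 2) was averaged over spots of a probe. A probe was well above background on an array where at least 50% of its spots were, and was kept where both arrays of a genotype were. Probes were named by RefSeq transcript accession (26581 of 39429, table of assembly GRCm38.p6, used for names and neighbours because the array design cites another build). Each gene took the kept probe with the highest mean signal, and 6854 of 20637 features had no symbol. A fold is called at least N where the dimmer genotype was not well above background on either array. It is set against the higher of the probe's signal and the lowest well-above-background signal of each array.

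Differences and SE came from limma 3.58.1 (R 4.3.3; eBayes without trend), two-sided, with Benjamini-Hochberg adjustment over all features. With 2 arrays per genotype, a p-value reflects the spread between these samples alone, which may be technical. The precision is limited by the number of arrays. The fit was tested on simulated data with noise drawn independently for each array. Those data lacked the correlation between replicate numbers given below, so that test says nothing about it. The 9 genes, the gene lists and the rules for naming genes were chosen with earlier results of these data known. Named list genes were those past the threshold, otherwise the 2 of smallest p, with defining markers and a few others (Cd4, Gata3, Flt3, Cd80, Cd86) added after their values were seen. Normexp used the median spot signal, because the files hold no mean signal. Keeping outlier spots, and counting a probe as detected where any of its spots was, were alternatives chosen after seeing the data. The counts and sums of the gene lists cover all their genes, of which 1 is not reported by name here or drawn.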

Additional observations from a re-analysis of the deposited data

How the results depend on the processing

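No feature passed an adjusted p of 0.05 with limma under any of the 14 alternatives, where 421 had an unadjusted p under 0.05 in the fit reported. That number was 811 without the filter on dim probes, 239 with a trend in the variance model, 1455 with the replicate block and 299 to 973 when 1 array was left out. The number of features whose genotypes do not overlap rose from 4043 to between 9393 and 15096 when 1 array was left out, since a lone array overlaps less easily. Over the alternatives, the difference of Thy1 ranged from 0.56 to 1.62 on the log2 scale, that of Cd8a from 0.23 to 1.56 and that of Cd28 from 0.08 to 0.41, all above 0. Cd8b1 turned below 0 without Aff3+/- replicate 1, and Tcf7 without Aff3-/- replicate 1 and with normexp. Cd3e (-0.25 to 0.04), Cd3d (-0.002 to 0.14) and Lat (-0.12 to 0.01) changed sign once each within their SE of the reported value, and Lck (-0.17 to -0.02) did not. Of the medians of the 15 gene lists, 6 kept their sign in all 14 alternatives. The sign turned in 5 alternatives for the CD28 family, 4 for Notch, 3 each for T lineage and Wnt factors, 2 each for the B cell, T cell, CD8 alpha and plasmacytoid dendritic cell lists and 1 for the macrophage list. The deposited values were among these for the CD28 family, Notch, T lineage and CD8 alpha dendritic cell lists. That table held no feature with both Aff3-/- arrays higher, so nothing is read from those turns. The median over all features was -0.07 in the deposited values and moved by less than 0.1 in every alternative. The labels do not say that a replicate number marks a shared mouse or day. The gap between replicate numbers correlated between the genotypes (r = 0.56 across features, which are not independent), and with the number as a block the SE was 0.25 for Thy1 and 0.15 for Cd8a. Signals of Cd8a and Cd8b1 near the background, and 2 arrays per genotype, limit what can be measured.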
